A study of Mus musculus with 36 samples.

Results

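Circular RNAs (circRNAs) from 10 genes that encode regulators of splicing and RNA editing were examined in the mouse hippocampus and frontal cortex over the light-dark cycle. The genes were Qk, Mbnl1, Mbnl2, Rbfox1, Rbfox2, Celf2, Ptbp2, Elavl2, Adarb1 and Adarb2. A circRNA was counted as a member when both of its ends lay inside 1 of these genes on the gene's own strand (GENCODE M21 annotation of GRCm38). This rule found 125 circRNAs of the 33259 listed over both tissues, and each of the 10 genes had at least 2. Of all circRNAs, 29473 lay inside a gene on its strand, and they came from 6709 host genes.

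Total RNA was taken from whole hippocampi and frontal lobes of adult male mice, perfused before dissection. The strain is C57BL/6 in the labels and C57BL6/N in the study's methods. No genotype or drug was compared, and the groups differed only in tissue and time. The time points were ZT1, ZT5 and ZT9 in the light and ZT13, ZT17 and ZT21 in the dark, where zeitgeber time (ZT) counts hours from lights on, with 3 replicates per time point, 18 samples per tissue and 36 in all. The tables give the number of circular reads, that is reads across the head-to-tail junction of a circle, per circRNA and sample, and the smallest count above 0 was 2. Nothing in the labels says which samples came from the same animal, so p-values measure the spread between these samples.

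Circles form when the end of an exon is spliced back to the start of the same or an earlier exon. RNA-binding proteins that bind the introns on either side are known to favour or hinder this step. The quaking protein made by Qk favours it, muscleblind proteins have been linked to circles from their own genes, and editing of paired introns by ADAR enzymes can reduce circle formation. In the brain, RBFOX, CELF, PTBP2, MBNL and ELAVL proteins set neuronal splice patterns or the stability of mRNAs.

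The sequences below are the back-splice junctions of the circles with the most reads among those with both ends on exon boundaries, 1 for each of 7 genes and all 3 for Elavl2, because the junction is what the reads counted here have in common. Each is the last 20 bases of the circle in lower case followed by its first 20 bases in capitals, written 5′ to 3′ on the gene's strand from the GENCODE M21 transcripts of GRCm38.
Elavl2 chr4:91308611-91311663, minus strand, exons 2 to 3 of Elavl2-206: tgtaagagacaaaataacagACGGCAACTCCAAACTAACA
Elavl2 chr4:91281214-91311663, minus strand, exons 2 to 4 of Elavl2-206: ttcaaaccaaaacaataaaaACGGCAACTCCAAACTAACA
Elavl2 chr4:91260761-91311663, minus strand, exons 2 to 6 of Elavl2-206: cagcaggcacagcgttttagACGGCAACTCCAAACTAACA
Mbnl2 chr14:120324794-120325412, plus strand, exon 2 of Mbnl2-201: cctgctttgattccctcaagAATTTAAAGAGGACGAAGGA
Celf2 chr2:6664115-6721613, minus strand, exons 4 to 5 of Celf2-201: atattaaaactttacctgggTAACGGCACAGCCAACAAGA
Qk chr17:10238893-10282981, minus strand, exons 2 to 4 of Qk-204: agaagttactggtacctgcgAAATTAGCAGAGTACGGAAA
Rbfox1 chr16:7285478-7306461, plus strand, exons 4 to 7 of Rbfox1-203: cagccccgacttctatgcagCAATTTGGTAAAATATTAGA
Rbfox2 chr15:77094451-77105669, minus strand, exons 6 to 11 of Rbfox2-204: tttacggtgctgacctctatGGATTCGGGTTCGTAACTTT
Adarb2 chr13:8559104-8570574, plus strand, exons 2 to 3 of Adarb2-201: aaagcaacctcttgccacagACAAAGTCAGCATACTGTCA
Ptbp2 chr3:119740315-119761778, minus strand, exons 3 to 8 of Ptbp2-201: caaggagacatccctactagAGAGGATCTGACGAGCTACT
The 3 Elavl2 junctions share the bases in capitals, since all 3 circles begin at the same exon.

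The samples differed in their totals of circular reads, called depth here. Hippocampus samples held 6754 to 73252 circular reads over all circRNAs (median 21924), and cortex samples 8107 to 34803 (median 20301). The lowest totals were in hippocampus ZT13 replicate 1 and cortex ZT9 replicate 3, and the highest was in hippocampus ZT1 replicate 3. Marker mRNAs cannot be read from circular counts, but as a description the hippocampal transcription factor gene Prox1 hosted 197 circular reads in the hippocampus and 16 in the cortex. Of the marker genes listed, 4 had no circle, and the cortical markers Bcl11b and Tle4 hosted more reads in the hippocampus (152 and 187) than in the cortex (57 and 152).

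The 125 circles together held 1213 of 431196 circular reads in the hippocampus and 934 of 362041 in the cortex. As reads per 10000 circular reads of the sample, this was 27.3 ± 7.13 (SD, n = 18) and 24.9 ± 6.07 (SD, n = 18). The lowest sample had 11.8 and the highest 40.4 in the hippocampus, against 13.6 and 34.6 in the cortex, so the tissues overlapped. Per sample, between 4 and 42 of the circles were seen in the hippocampus and between 4 and 24 in the cortex, with a median of 16 in both.

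The genes fell into 3 tiers by reads. A circle has 1 junction whatever its length, so these counts were not divided by length. Celf2 had 520 circular reads over 36 samples, Elavl2 451, Rbfox1 426, Qk 285, Mbnl2 222 and Adarb2 150. Rbfox2 had 51 and Adarb1 25, and Ptbp2 and Mbnl1 had only 9 and 8. Among the 6709 host genes, Celf2 ranked 309 by circular reads and Mbnl1 3510. The number of circles did not follow this order, since Celf2 had 41 circles and Rbfox1 36, whereas Elavl2 and Mbnl2 reached their totals with 3 and 2.

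**Figure D1:**
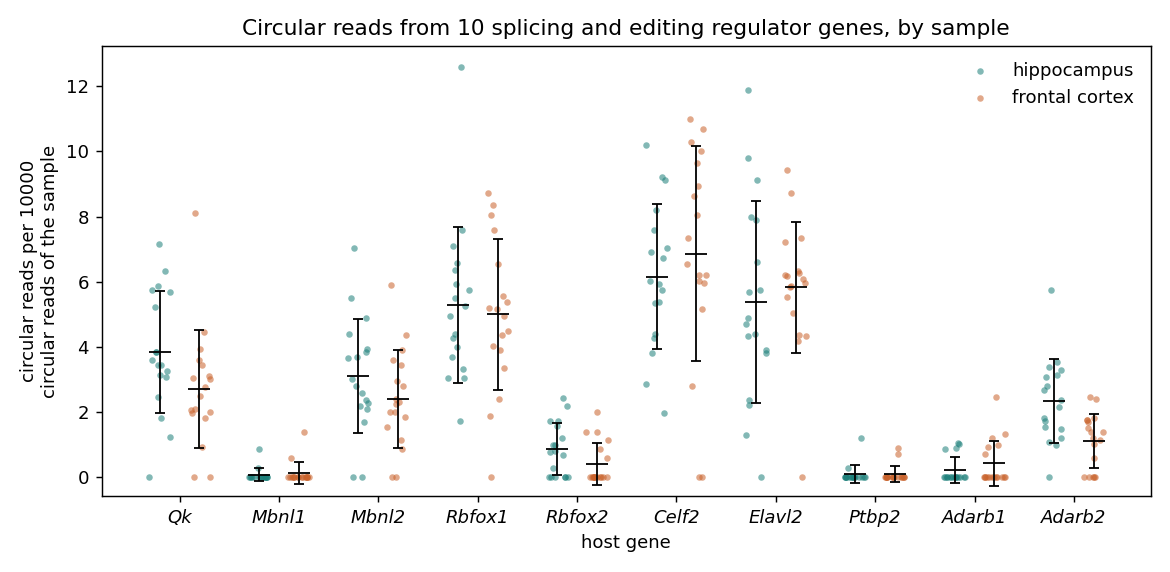
Circular reads per 10000 circular reads of the sample (vertical axis) for each host gene (horizontal axis), with 1 point per sample, and bars for the mean ± SD over 18 samples of each tissue. Celf2, Elavl2 and Rbfox1 have means of at least 4.99 in both tissues, Mbnl1 and Ptbp2 are at 0 in 16 of 18 samples of each tissue, and every gene's tissues overlap.

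Qk encodes quaking, a STAR-domain protein that guides splicing in glia and other cells. The gene lies on chromosome 17, 10202601 to 10319854, and had 9 circles, of which 7 were found in both tissues. Its circular reads per sample ran from 0 to 42 in the hippocampus with a median of 9, and from 0 to 16 in the cortex with a median of 5. Per 10000 circular reads this was 3.83 ± 1.87 (SD, n = 18) and 2.7 ± 1.82 (SD, n = 18). The ranges overlapped, from 0 to 7.14 and from 0 to 8.11, and the highest cortex sample was above every hippocampus sample.

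The leading Qk circle joined exon 4 back to exon 2 of Qk-204, had 404 bases of exon and only coding sequence, and held 80 reads in the hippocampus and 48 in the cortex, in 15 of 18 samples each. Exon 4 was the common donor: 4 circles ended at 10238893, with 61.4% of the gene's reads, among them a circle of exon 4 alone, 144 bases long, with 15 and 12 reads. The second circle by reads, chr17:10213206-10213358, was of another kind. It measured 153 bases, had neither end on an annotated exon boundary and lay inside 1 exon of Qk-201 and Qk-206, next to position 10213359, where exon 7 of Qk-204 ends. It held 51 reads in the hippocampus, in 12 samples, and 28 in the cortex, in 9 samples.

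The muscleblind genes differed from each other. Both encode zinc-finger proteins that switch exons from fetal to adult forms. Mbnl1 (chromosome 3, 60472830 to 60629750) had 3 circles with 4 reads in each tissue, and no circle was found in 2 replicates of a time point. The reads came from 2 samples per tissue, 2 reads in each. The circle with the most, chr3:60595594-60603894, joined exons 3 and 4 of Mbnl1-201 and had 2 reads in 1 sample of each tissue. The circle of exon 4 alone had 2 reads, in 1 hippocampus sample, and chr3:60596719-60625198 had 2, in 1 cortex sample.

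Mbnl2 (chromosome 14, 120275669 to 120431697) put 98.6% of its reads into 1 circle of exon 2 of Mbnl2-201, which is 619 bases long and holds both UTR and coding sequence. This circle had reads in 16 of 18 samples of each tissue. It had up to 18 reads per sample in the hippocampus with a median of 6.5, and up to 10 in the cortex with a median of 4.5, or 3.05 ± 1.76 and 2.4 ± 1.5 reads per 10000 (SD, n = 18 each). Each tissue had 2 samples at 0. The second circle, from the same exon start to 120342482, had 3 reads in 1 hippocampus sample.

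The RBFOX proteins bind the same motif near neuronal exons, and their genes also differed in output. Rbfox1 (chromosome 16, 5885355 to 7411526) is the longest of the 10 genes at 1530 kb and had 36 circles, 30 of them in the hippocampus and 16 in the cortex, with 10 in both. Of the 36, 22 were found in 1 sample. Circular reads per sample were between 4 and 52 in the hippocampus and between 0 and 28 in the cortex, and per 10000 the levels were 5.28 ± 2.41 and 4.99 ± 2.32 (SD, n = 18 each). The 2 means differed by less than the spread between samples.

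Most Rbfox1 reads came from groups of circles near opposite ends of the gene, and other circles lay between or reached across. The circle with the most reads, chr16:5956249-5956863 on the plus strand, is 615 bases long, lies near the 5′ end and overlaps no annotated exon of GENCODE M21. It had 59 reads in the hippocampus and 66 in the cortex, in 14 and 15 samples. A second, chr16:5953419-5956863, used the same donor and had 28 and 25 reads, and the 3 circles ending at 5956863 held 42.3% of Rbfox1 reads. In all, 13 of the 36 circles had no end on an annotated exon boundary. The other group lay in the coding exons near the 3′ end, where 6 circles began at 7224311 (exon 2 of Rbfox1-203, 24.4% of reads) and 5 at 7285478 (exon 4, 16.4%). The leading circle there, of exons 4 to 7, had 37 and 24 reads.

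Rbfox2 (chromosome 15, 77078990 to 77307004) had 12 circles but 33 reads in the hippocampus and 18 in the cortex. The circle of exons 6 to 11 of Rbfox2-204 held 47.1% of them, with 18 reads in 8 hippocampus samples and 6 reads in 2 cortex samples. The next were chr15:77216374-77231437, with 5 reads in 2 hippocampus samples, and the circle of exons 7 to 10, with 2 reads in 1 sample of each tissue. The circle of exons 6 to 11 was the gene's only one found in 2 replicates of a time point, and that was in the hippocampus.

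Celf2 encodes a CUG-binding protein that acts on splicing and translation. The gene (chromosome 2, 6539694 to 7509563) had the most circles, 41, with 26 in the hippocampus, 25 in the cortex and 10 in both. Circular reads per sample ran from 4 to 44 in the hippocampus with a median of 13.5, and from 0 to 28 in the cortex with a median of 16. This was 6.15 ± 2.24 and 6.86 ± 3.31 reads per 10000 (SD, n = 18 each), and the ranges overlapped. Of the 41 circles, 31 had both ends on exon boundaries, and 7 acceptors and donors were used by at least 4 circles each. Exon 4 of Celf2-201, at 6721613, was the start of 7 circles with 45.0% of the reads. The leading circle, exons 4 to 5, had 80 reads in the hippocampus and 71 in the cortex, in 14 and 13 samples, and exons 4 to 7 followed with 22 and 31. A second cluster started at exon 4 of Celf2-211 (6615822), with 5 circles and 24.0% of the reads, led by exons 4 to 8 with 24 and 29.

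**Figure D2:**
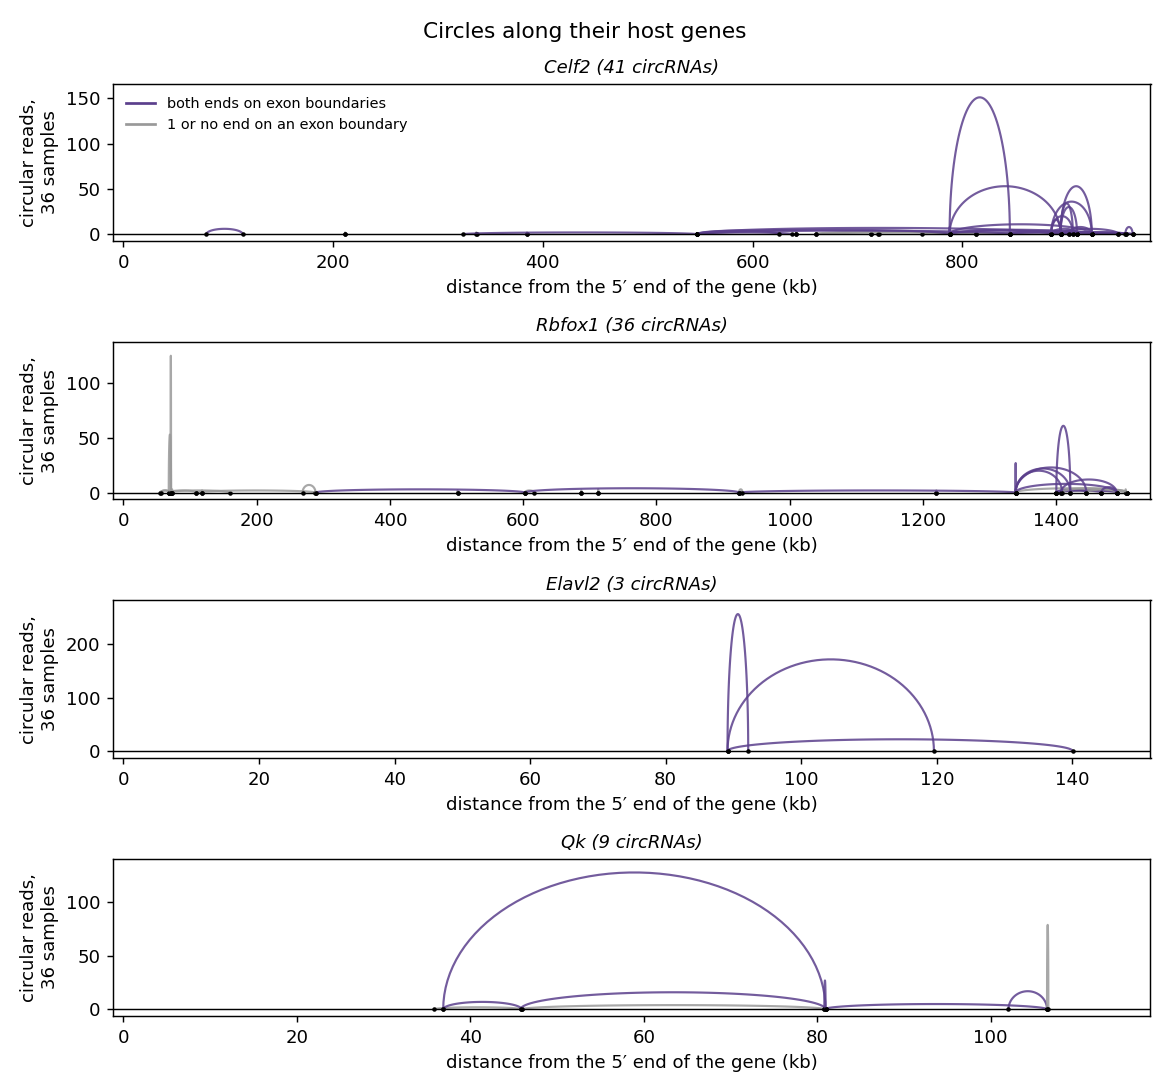
Circles of 4 genes drawn as arcs from their start to their end, against the distance from the 5′ end of the gene (kb, horizontal axis), with the height giving circular reads over 36 samples (vertical axis). Purple arcs have both ends on exon boundaries and grey arcs have 1 or none, and the 3 Elavl2 arcs leave from 1 point while the tallest Rbfox1 arc is a narrow grey one near the 5′ end.

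Ptbp2, which encodes the neuronal polypyrimidine tract binding protein, gave few circles. The gene (chromosome 3, 119718742 to 119784466) had 2 circles, with 5 reads in the hippocampus and 4 in the cortex. The circle of exons 3 to 8 of Ptbp2-201 had 7 of these 9 reads. The circle of exons 8 to 11 had 2 reads in 1 cortex sample, and neither was found in 2 replicates of a time point.

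Elavl2 encodes HuB, a neuronal protein that binds AU-rich stretches of mRNA. The gene (chromosome 4, 91250763 to 91400785) had 3 circles, all found in both tissues and all starting at 91311663, exon 2 of Elavl2-206. Circular reads per sample ran from 0 to 42 in the hippocampus with a median of 10.5, and from 0 to 22 in the cortex with a median of 12. Per 10000 this was 5.37 ± 3.1 and 5.82 ± 2.0 (SD, n = 18 each). The short circle, exons 2 to 3 with 335 bases of exon, had 141 reads in the hippocampus and 116 in the cortex, in 15 and 17 samples. The next, which adds exon 4, had 83 and 89, and the longest, exons 2 to 6, had 11 in each tissue. No other gene of the 10 with more than 2 circles placed all its reads on 1 end.

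The editing genes were Adarb1, which encodes the adenosine deaminase ADAR2 that recodes glutamate receptor mRNA, and Adarb2, which encodes its brain relative ADAR3 with no known editing activity. Adarb2 (chromosome 13, 8202866 to 8768747) had 11 circles, with 109 reads in the hippocampus and 41 in the cortex. Reads per sample ran from 0 to 23 in the hippocampus with a median of 5, and from 0 to 6 in the cortex with a median of 2. Per 10000 this was 2.33 ± 1.3 and 1.11 ± 0.83 (SD, n = 18 each), and 1 hippocampus sample and 5 cortex samples were at 0. The leading circles were exons 2 to 3 of Adarb2-201 (24 and 14 reads), exons 4 to 6 (21 and 11) and exons 5 to 8 (22 and 2). The last of these was seen in 9 hippocampus samples and 1 cortex sample. The start at 8672405, exon 4, served 4 circles with 43.3% of the reads.

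Adarb1 (chromosome 10, 77290726 to 77418270) had 6 circles, with 9 reads in the hippocampus and 16 in the cortex. Reads appeared in 4 and 6 samples, at most 5 per sample. The circle with the most reads, chr10:77354525-77359735 on the minus strand, had 7 reads in each tissue and 1 of its ends on an exon boundary. Next came chr10:77356902-77359735, with 3 reads in 1 cortex sample, and 4 circles with 2 reads in 1 sample each, among them chr10:77294703-77295876 in the hippocampus. The leading circle was the only Adarb1 circle found in 2 replicates of a time point, in the cortex at ZT13.

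The number of circles seen differed between time points, as did the reads of the samples. In the hippocampus, 52 of the 125 circles were seen in any replicate at ZT1, where the 3 samples had 122389 circular reads together. At the other times between 28 and 38 were seen, from 47251 to 68825 reads. In the cortex the number was between 21 and 39, the lowest at ZT13 and the highest at ZT17, from 46177 to 76207 reads. Without hippocampus ZT1 replicate 3, the sample with the most reads, 117 circles were listed in place of 125. The part of depth in the differences between time points was not tested.

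By gene, Celf2 had between 6 and 15 circles per time point in the hippocampus and between 5 and 11 in the cortex, and Rbfox1 between 6 and 14 and between 4 and 12. Elavl2 had 2 or 3 circles and Mbnl2 1 or 2 at every time point in both tissues. Qk had between 2 and 7, and Adarb2 between 2 and 8. Mbnl1 had none at 4 of 6 time points in each tissue. Ptbp2 had none at 4 time points in the hippocampus and 5 in the cortex, and Adarb1 none at 3 and 2. Rbfox2 had none in the cortex at ZT5 and ZT13. A circle in at least 2 replicates of a time point was kept for the tests, and 39 of the 125 circles (31.2%) were kept in at least 1 tissue, against 22.0% of all circles inside a gene.

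**Figure D3:**
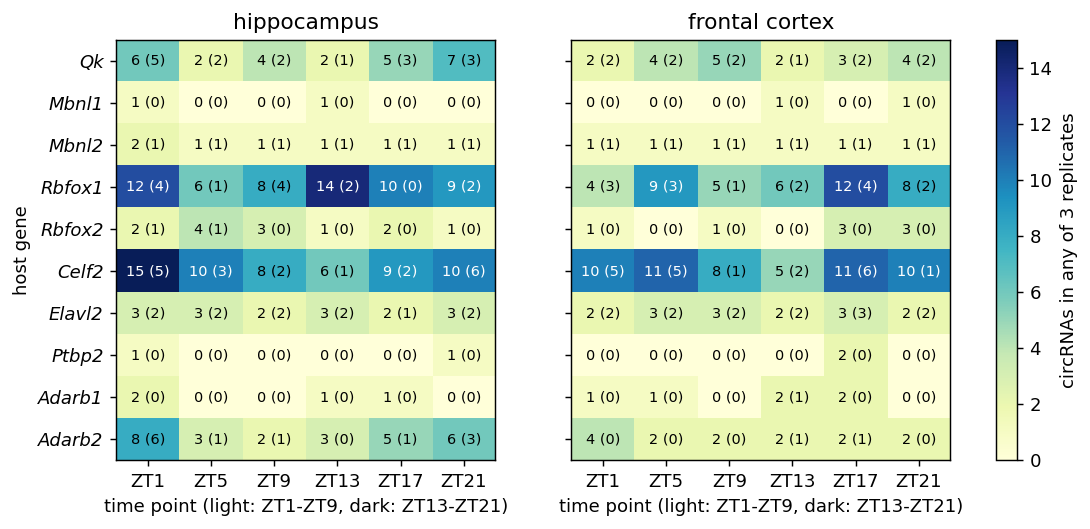
Number of circRNAs seen in any of 3 replicates for each host gene (rows) and time point (columns) in the hippocampus and the frontal cortex, with the number seen in at least 2 replicates in parentheses and the colour giving the first number. Celf2 at hippocampus ZT1 has the most, 15, and Mbnl1 and Ptbp2 never reach 1 circle in 2 replicates.

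The circles of these genes were compared with all circles inside a gene, as a description. Both ends fell on exon boundaries in 63.2% of the 125, against 71.7% of 29473, and neither did in 25 of the 125 against 3839 of the 29473. Rbfox1 weighed most in this, with both ends on boundaries in 14 of its 36 circles and 13 of the 25 with neither. In Celf2, by contrast, 31 of 41 circles had both ends on boundaries. The median distance between the ends was 21.5 kb against 11.5 kb, and 14.4% spanned over 100 kb against 6.1%. All 18 circles over 100 kb came from Celf2 (10) and Rbfox1 (8), the 2 longest of the genes. Of the circles that could be placed on a transcript, 26.7% began at exon 2, against 26.9% of all. An end was shared with another circle of the same gene in 76.8%, against 67.5%.

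Short motifs, 2 in all, were searched in 200 bases of exon joined at the junction, 100 on each side. Both the transcript strand and its complement were searched. The introns beside the circles were not searched. Of the 68 windows of these genes, 25 were from Celf2 and 12 from Rbfox1, and windows of circles that share an end overlap. ACTAA, the core of the element bound by quaking, was found in 8 of the 68 circles with such a window (11.8%), against 9.0% of 20069 windows of all circles. The 8 included 4 of 5 Qk windows and 3 of 3 Elavl2 windows, which overlap because the circles share their ends. In Elavl2 the match lies in the capitals printed above. On the complement, TTAGT was found in 5.88%, against 6.16%. GCATG, the motif of RBFOX proteins, was found in 3 of 68 (4.41%), against 17.5%, and in none of the Rbfox1 or Rbfox2 windows. Its complement CATGC was found in 4.41%, against 17.8%. The motifs do not overlap each other, and a match is a description of letters only.

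To compare hippocampus and frontal cortex, circular reads were summed per host gene over the circles kept and tested with edgeR's quasi-likelihood test in 1 fit of 36 samples. In bulk tissue, fewer cells of a type and less RNA per cell cannot be told apart. After the filter on low counts, 736 host genes were tested and 239 (32.5%) were past an adjusted p of 0.05, 127 higher in the hippocampus. Of the 10 genes, 5 had enough reads to be tested, and none was past the threshold, while 1 had an unadjusted p under 0.05. DESeq2 also called none of the 5. That gene was Qk, with a log2 difference of 0.63 ± 0.30 (SE) towards the hippocampus, a p of 0.0405 and an adjusted p of 0.108 in edgeR. Of the Qk circles in the sum, 5 were kept in the hippocampus and 3 in the cortex, so the filter was partly passed through the tissue with the higher value. Mbnl2 differed by 0.33 ± 0.32, Celf2 by -0.14 ± 0.25, Elavl2 by -0.21 ± 0.21 and Rbfox1 by -0.29 ± 0.26, with adjusted p between 0.425 and 0.719. The errors leave room for differences of either sign in the last 4. The Rbfox1 sum held 7 of its 36 circles, and with sums over all circRNAs listed its difference was 0.02. Single samples moved the tissue differences, none of them past the threshold. Qk was at 0.37 without hippocampus ZT13 replicate 2, Rbfox1 at -0.56 without hippocampus ZT17 replicate 2, Elavl2 at -0.12 without cortex ZT1 replicate 3, and Celf2 turned to 0.15 without cortex ZT13 replicate 3. The last leaves cortex ZT13 with 4 and 0 Celf2 reads, and the -0.56 leaves the leading Rbfox1 circle without reads at hippocampus ZT17.

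With all sums tested whatever their counts, 8 of the 10 genes had a value. Rbfox2 was then 2.0 ± 0.82 higher in the hippocampus on the log2 scale (edgeR, adjusted p = 0.106) and Adarb2 0.90 ± 0.47 higher (adjusted p = 0.282). The Rbfox2 sum held 1 circle, which was kept in the hippocampus and not in the cortex. For Adarb2, 6 circles were kept in the hippocampus and 2 in the cortex. Both sums thus passed the filter at least in part through the tissue with the higher value, and the differences are not independent of it. The value of Adarb1 had no usable error, and Mbnl1 and Ptbp2 had no circle kept and no test. Single circles with enough reads were the exon 2 circle of Mbnl2 and the exon 2 to 3 circle of Elavl2, 2 of 125. Over all circles, 216 of 710 (30.4%) were past the threshold. The Mbnl2 circle differed by 0.33 ± 0.31 (SE, adjusted p = 0.45) and the Elavl2 circle by -0.16 ± 0.30 (adjusted p = 0.735), so neither was past it, and neither had an unadjusted p under 0.05. The Elavl2 value moved to -0.78 without hippocampus ZT17 replicate 2 and to 0.02 without cortex ZT1 replicate 3, and stayed short of the threshold in both. That ZT17 replicate was the only hippocampus sample of its time point with reads of this circle. DESeq2 called neither circle.

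**Figure D4:**
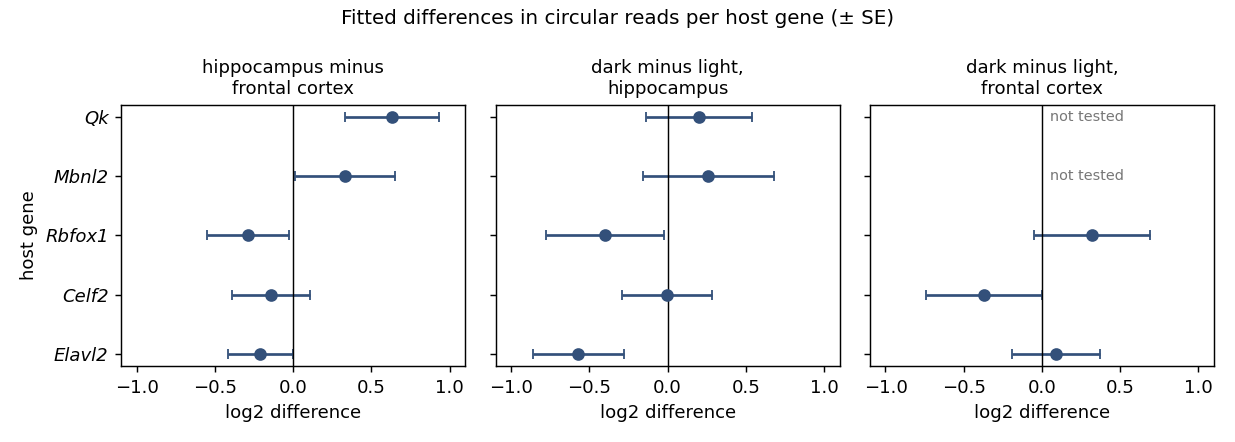
Log2 differences in circular reads per host gene (horizontal axis) with standard errors derived from edgeR's test, for the 5 genes tested (rows), between tissues and between the dark and the light phase in each tissue. Qk lies furthest from 0 between the tissues, at 0.63, Elavl2 furthest in the hippocampus, at -0.57, and no gene is past an adjusted p of 0.05.

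The dark phase (ZT13, ZT17 and ZT21) was compared with the light phase (ZT1, ZT5 and ZT9) within each tissue. Here and over the time points, values were scaled to the circular reads of the sample, so they compare a gene's share of these. A change shared by all circles would not show. The study reported that circular reads, scaled to all reads, changed over the cycle in both tissues. It put this down to expression of the linear host genes, for the hippocampus as the most probable explanation. That was not tested here. In the hippocampus 1 of 628 host genes (0.159%) was past the threshold in edgeR, and 0 of 5 members. Elavl2 had the largest difference of the 5, -0.57 ± 0.29 (SE, edgeR adjusted p = 0.942). The others were Rbfox1 at -0.40 ± 0.38, Mbnl2 at 0.26 ± 0.42, Qk at 0.20 ± 0.34 and Celf2 at -0.0044 ± 0.29. With each sample left out in turn, Rbfox1 ran from -0.93 (without ZT17 replicate 2) to -0.15 (without ZT5 replicate 2), Mbnl2 from 0.06 (without ZT13 replicate 3) to 0.45 (without ZT9 replicate 1), and Qk turned to -0.31 without ZT13 replicate 2. The Rbfox1 value of -0.93 had an unadjusted p of 0.0384 in edgeR and was not past the threshold. At ZT17 the leading Rbfox1 circle had 0, 4 and 0 reads, so few reads of the circles kept remain without replicate 2. A phase is the mean of the log levels of its time points, so a time point near 0 weighs heavily. Elavl2 ran from -0.72 to -0.46, with an unadjusted p between 0.0256 and 0.143 and no adjusted p under 0.683 (edgeR). With all samples, none of the 5 had an unadjusted p under 0.05, and DESeq2 called none.

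In the frontal cortex 0 of 570 host genes (0%) were past the threshold, with 21 at an unadjusted p under 0.05. Celf2, Elavl2 and Rbfox1 had enough reads there. Celf2 differed by -0.37 ± 0.37, Rbfox1 by 0.32 ± 0.37 and Elavl2 by 0.09 ± 0.28 (edgeR, adjusted p between 0.967 and 0.987). With each sample left out in turn, Celf2 ran from -0.95 (without ZT13 replicate 3) to -0.15 (without ZT13 replicate 2), Rbfox1 reached 0.61 without ZT9 replicate 1, and Elavl2 reached 0.28 without ZT1 replicate 3. The Celf2 value of -0.95 had an unadjusted p of 0.0259 in edgeR, and none of these values was past the threshold. The -0.95 leaves ZT13 with 4 and 0 Celf2 reads, over all its circles. The difference between the tissues in the dark-light contrast was tested itself, and 0 of 736 host genes (0%) passed, with 41 at an unadjusted p under 0.05 and 0 calls by DESeq2. For Elavl2 it was -0.64 ± 0.42 (adjusted p = 0.965), for Rbfox1 -0.72 ± 0.53 and for Qk 0.88 ± 0.60 (both adjusted p = 0.965). Without hippocampus ZT17 replicate 2 Rbfox1 was at -1.29 (edgeR, unadjusted p = 0.0265), and without hippocampus ZT13 replicate 2 Qk was at 0.34, neither past the threshold. The Rbfox1 value again leaves its leading circle without reads at hippocampus ZT17.

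Over 6 time points, 1 of 628 host genes in the hippocampus (0.159%) and 0 of 570 in the cortex (0%) were past the threshold in edgeR. The cortex had 21 at an unadjusted p under 0.05 and 2 calls by DESeq2. Among the members 0 of 5 and 0 of 3 were past it, and DESeq2 called none of them. Elavl2 in the hippocampus had an unadjusted p of 0.0368 and an adjusted p of 1. With each sample left out in turn, its unadjusted p ran from 0.00157 to 0.168 in edgeR, and no adjusted p was under 0.305. Its lowest level there was at ZT17, with 3, 5 and 5 reads in the 3 replicates, or 1.95 ± 0.587 reads per 10000 (SD, n = 3). The highest was at ZT5, with 15, 23 and 10 reads, or 7.57 ± 3.29. At ZT13 the replicates had 0, 19 and 20 reads, a range from 0 to 11.9 per 10000 that is wider than that of the 6 means, and the sample at 0 was the one with the fewest reads in all.

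For single circles in the hippocampus, 0 of 582 (0%) were past the threshold over 6 time points, with 19 at an unadjusted p under 0.05, and 0 of 582 (0%) between the phases, with 27. DESeq2 called 0 in both. Between tissues, 0 of 710 (0%) differed in the dark-light contrast in edgeR, with 29 at an unadjusted p under 0.05, and 1 in DESeq2. The short Elavl2 circle had 9, 14 and 2 reads at ZT5, 0, 13 and 14 at ZT13 and 0, 5 and 0 at ZT17. Its dark-light difference was -0.81 ± 0.48 (SE, edgeR adjusted p = 1), and -2.13 without ZT17 replicate 2, the only sample of that time with reads. With each sample left out in turn, its lowest unadjusted p in edgeR was 0.00741, and no adjusted p was under 0.524. The Mbnl2 circle had 4, 8 and 16 reads at ZT1 and 10, 7 and 18 at ZT21, with a dark-light difference of 0.25 ± 0.41 (adjusted p = 1). No member circle had enough reads to be tested within the cortex.

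**Figure D5:**
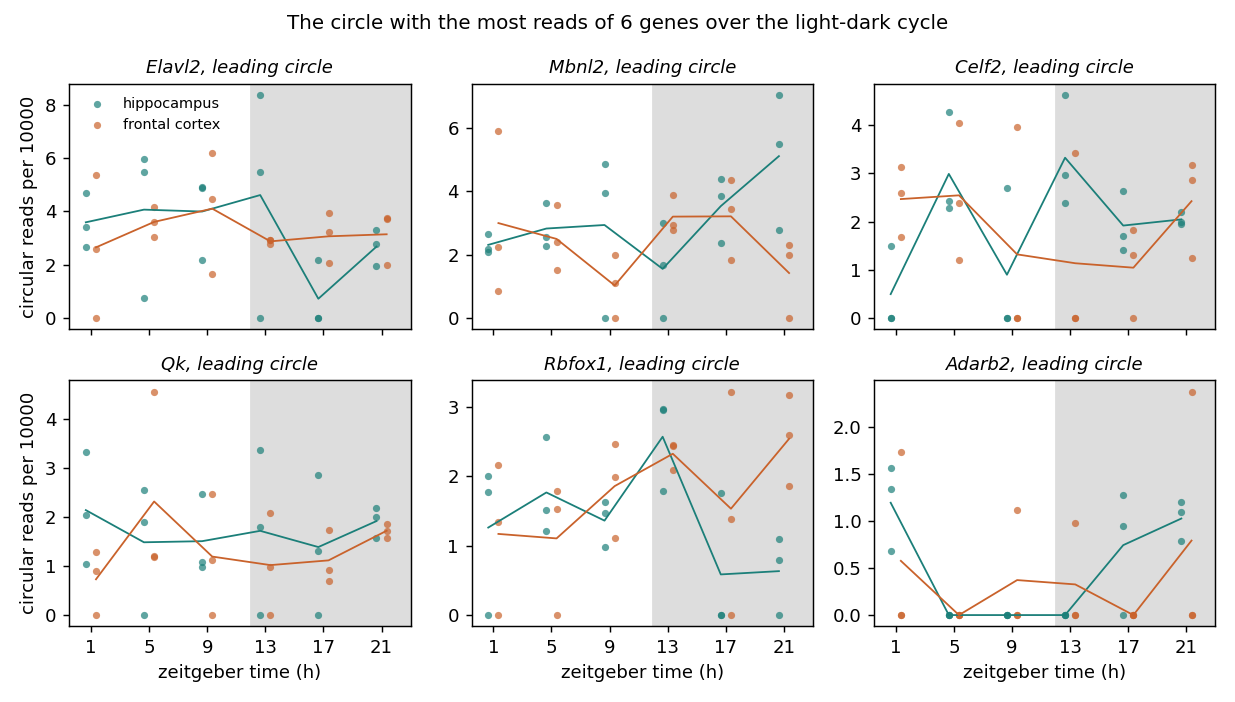
Circular reads per 10000 circular reads of the sample (vertical axis) for the circle with the most reads of 6 genes against zeitgeber time (h, horizontal axis), with 1 point per sample, lines through the mean of 3 replicates and the dark phase in grey. In each panel samples at 0 stand beside samples with reads at 1 or more time points, as for Elavl2 at hippocampus ZT17.

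A list of 100 further regulators of splicing and editing, chosen for function, was described beside these genes. Of them 70 had a circle, and 6 had enough reads to be tested at host level. Between the tissues 3 of the 6 were past the threshold in edgeR, beside the 32.5% of all host genes. Hnrnpu, which encodes a nuclear scaffold protein, was 0.31 ± 0.10 (SE, adjusted p = 0.0121) higher in the hippocampus on the log2 scale, with 31.3 ± 4.55 against 25.8 ± 6.63 reads per 10000 (SD, n = 18 each). Khdrbs3, a STAR-domain relative of quaking, was 0.52 ± 0.16 higher (adjusted p = 0.0106), with 9.85 ± 3.08 against 6.81 ± 2.36. Nova2, a neuronal splicing regulator, was lower in the hippocampus, with a log2 difference of -0.83 ± 0.23 (adjusted p = 0.00395), with 3.52 ± 1.56 against 6.02 ± 2.58.

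Elavl3, a relative of Elavl2, had 22.8 ± 4.04 and 22.7 ± 5.47 reads per 10000 (SD, n = 18 each), and a log2 difference of -0.04 ± 0.11 (SE, edgeR adjusted p = 0.834). Ptbp3 had 186 reads in the hippocampus and 173 in the cortex, far above its relative Ptbp2 with 5 and 4, and differed by 0.11 ± 0.25 (adjusted p = 0.785). The median log2 difference of the 6 was 0.04, against 0.03 over all host genes. None of the listed regulators tested was past the threshold in the dark-light or time comparisons of either tissue (edgeR, 5 tested in the hippocampus and 6 in the cortex), where 1 had an unadjusted p under 0.05, over the cortex time points.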

How the data were processed

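Total RNA of whole tissue was depleted of ribosomal RNA and sequenced by the authors, mapped to GRCm38 with BWA and searched for circRNAs with CIRI2. The deposited values are raw counts of reads across back-splice junctions, 1 value per circRNA and sample, unnormalized and not pooled. Of the columns in the tables, 1 matched no sample by name and was not used. Linear reads were not analysed here, and 1 marker gene is not reported here.

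Circles were assigned to genes by both ends and strand (GENCODE M21), and kept if 2 or more replicates of a time point had them, after the study's methods. Tests of counts, per circle and summed per host gene, used edgeR 4.0.16 under R 4.3.3 (TMM, the default filter on low counts, quasi-likelihood test, Benjamini-Hochberg adjustment over all features, threshold 0.05). This test gives no standard error. The SE printed is the size of the log2 difference divided by the square root of the test's F value, and is approximate. The tests were also run on simulated counts with the same dispersion for every feature, which the data need not have, and the outcome is not given here. Alternatives were DESeq2 1.42.0, other scalings, filters and sums, the replicate number as a block, and leaving out each sample. Tables and plots used Python 3.11.15, numpy 2.4.6, pandas 2.3.3 and matplotlib 3.10.9.

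Named were all 10 genes, in each the up to 3 circles with the most reads and every circle tested or past the threshold, and of the 100 further regulators the 5 with the most reads and those past it. Circles named for shared ends were chosen after their values were seen. The members and lists were chosen with earlier results of these data known. Depth per sample limits precision: a circle with 0 reads may be present below 2 reads.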

Additional observations from a re-analysis of the deposited data

Results flagged for a closer look

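Levels of each gene in the 9 samples of a phase and tissue were searched for a sample whose gap to its neighbour was a large part of the range (Dixon's criterion, 0.493 for 9 samples). Of 25 such groups with reads in at least 5 samples, 3 had one. The criterion is passed by about 1 in 20 groups of normal values from 1 population. These groups hold low counts at unequal totals and pool the time points of a phase, so that rate does not apply to them. Rbfox1 reached 12.6 reads per 10000 in hippocampus ZT13 replicate 2, from 30 reads over 11 circles, where the other 8 dark samples had between 1.71 and 6.57. Celf2 was at 0.0 in cortex ZT9 replicate 3, the cortex sample with the fewest reads (8107), where the other light samples had between 5.96 and 11.0. Adarb2 reached 5.73 in hippocampus ZT1 replicate 1, from 11 reads over 5 circles, against 0.986 to 3.14 in the others.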

How the results depend on the processing

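No member gene or circle was past the threshold in any of the 12 comparisons, under any alternative run or with any sample left out. In the main fits at most 5 genes and 2 of the 125 circles were tested. No member circle was tested within the cortex there, so those comparisons had no member to call. With every sample reduced to the smallest total, 6754 reads, 44.3 of the 125 listed circles would be expected and 8.85 of the 39 kept. Counting either strand gave 139 listed. Without hippocampus ZT1 replicate 3, an alternative chosen after seeing the totals, as were leaving out the 2 shallowest samples, 117 were listed and 33 kept. Some directions turned, and none of the turned values had an adjusted p under 0.706. With sums over all circRNAs listed, Rbfox1 was at 0.02 between tissues and 0.05 between the phases in the hippocampus. Celf2 between the phases in the hippocampus was at 0.0028 with DESeq2's size factors and 0.02 with total circular reads, and from -0.16 to 0.11 with each sample left out. Leaving out each sample, the tissue difference ran from -0.26 to 0.15 for Celf2 and from -0.78 to 0.02 for the short Elavl2 circle, the phase difference from -0.31 to 0.3 for Qk in the hippocampus and from -0.03 to 0.28 for Elavl2 in the cortex, and the difference between tissues in dark against light from -0.35 to 0.08 for Mbnl2 and from -0.42 to 0.02 for its circle. Without the filter on low counts, 346 of 6656 circRNAs were called between tissues, in place of 216 of 710. Over the time points it was 14 circRNAs and 7 host genes in the hippocampus (0 and 1 with the filter) and 12 and 6 in the cortex (1 and 0), between the phases in the hippocampus 4 and 3 (0 and 1), and for the difference between tissues 2 and 2 (0 and 0), none of them members. The cause of these changes was not tested.

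Deviations of same-numbered samples of the tissues had a mean correlation of -0.00917 over 18 pairs, with 2 over 0.1. Counts this low can hide a shared animal, so the correlations cannot decide whether the replicate numbers pair the samples. With the replicate number as a block, Mbnl2 was at 0.01 for the difference between tissues in dark against light and Qk at 0.57 between tissues (adjusted p = 0.244), and no member was called. The planned use of the unmatched hippocampus column was not run. With the filter on low counts, 2 of the 125 circles were tested over time in the hippocampus and 0 in the cortex.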
